A study of Mus musculus with 36 samples.

Results

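Small nucleolar RNA host genes were followed through purified P-bodies, cytoplasm, polysomes and total RNA of mouse cells. The members were listed by symbol as Snhg1, Snhg3, Snhg5, Snhg6, Snhg8, Snhg11, Snhg12 and Gas5, and all 8 were found among the 25239 genes of the P-body and cytoplasm table, the 25229 genes of the polysome table and the 48440 features of the Ago2 KO table. The members were chosen by their values in polysome against total RNA and in P-body against cytoplasm, so those comparisons are given here as descriptions, without p-values. Where members are counted as called in them, the count and the share of all genes printed beside it describe values that took part in the choice, and nothing about the members is read from either. Counts under a left-out library or another setting, where printed without such a share, show only how far a count depends on that choice. Adjusted p-values are given only for 4 comparisons that the list did not name, although their libraries also enter the comparisons that it did.

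The series held 36 libraries in 16 groups. P-bodies were sorted as GFP-LSM14A particles from lysates cleared of nuclei, and each P-body group was matched by a cytoplasm group. By the paper's methods this cytoplasm was the resuspended pellet of a further spin, sampled before sorting. It therefore still held the P-bodies and left out the supernatant, and the word cytoplasm below means this fraction. Both fractions were read with 2 libraries each in naive ES cells, primed ES cells, Ago2 KO ES cells, MEFs (mouse embryonic fibroblasts), MEFs at day 3 of reprogramming (d3-ctrl) and MEFs at day 3 with Nudt21 knocked down by shRNA (d3-NudT21). The polysome libraries came from naive ES cells, 3 per group, as control_poly, control_total, DDX6deg_poly and DDX6deg_total. The DDX6 degron cells had been given dTAG-13, which triggers loss of a DDX6 protein that carries a degron tag, and the controls were the same line without it. All 4 polysome and total RNA groups therefore carried the tagged Ddx6 gene, and all had been exposed to cycloheximide before lysis. The degron line and the Ago2 KO line were each grown from single-cell clones, and the reprogrammed MEFs carried an inducible cassette of pluripotency factors.

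snoRNA host genes are transcribed by RNA polymerase II into long precursors whose introns hold small nucleolar RNAs. The snoRNA is trimmed out of the spliced intron, joins a set of core proteins and guides the chemical modification of ribosomal RNA, box C/D snoRNAs guiding methylation of the ribose and box H/ACA snoRNAs guiding pseudouridylation. What remains of a host such as Gas5 or Snhg1 is a spliced, polyadenylated RNA with short reading frames that is exported to the cytoplasm, meets ribosomes and is degraded by nonsense-mediated decay. Several hosts start with a run of pyrimidines, the same kind of start as ribosomal protein mRNAs have, through which growth signals control translation. P-bodies are cytoplasmic granules of untranslated RNA and decay or repression proteins, among them DDX6 and LSM14A.

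The members were distinguished by what they host. In the RefSeq annotation of GRCm38.p6 (the mm10 build), 28 snoRNA genes lay inside the 8 gene bodies on the same strand. Snhg1 (chr19:8723475-8726443, plus strand) and Gas5 (chr1:161034422-161038539, plus strand) held 8 each, Snhg12 (chr4:132308623-132311024, plus strand) held 4, and Snhg3 (chr4:132348014-132353686, minus strand), Snhg5 (chr9:88521050-88522929, minus strand) and Snhg11 (chr2:158375638-158386145, plus strand) held 2 each. Snhg6 (chr1:9941959-9944118, minus strand) and Snhg8 (chr3:123507552-123508404, minus strand) held 1 each. The gene coordinates are those of GENCODE M21 on the same build. Spliced transcripts linked to RefSeq ran from 400 bases in Snhg6 to 2556 in Gas5 and 5864 in Snhg11, and their longest reading frame starting at ATG had 35 codons in Snhg8, 41 in Snhg1, 58 in Gas5 and at most 89, in Snhg11. GENCODE M21 lists Snhg11 as protein coding, and the other members as noncoding.

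The start sites are shown so that the pyrimidine run described for several hosts can be looked for. RefSeq start sites were available for 7 members, with 2 starts for Gas5. Each line gives 30 bases before the annotated start and 30 bases from it on, 5′ to 3′ on the gene's strand, and the capitals mark a C followed by at least 4 further bases that are each C or T and beginning no more than 10 bases from the start.
Gas5, downstream start, chr1:161035136-161035195, plus strand: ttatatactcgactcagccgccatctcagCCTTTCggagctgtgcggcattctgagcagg
Gas5, upstream start, chr1:161034571-161034630, plus strand: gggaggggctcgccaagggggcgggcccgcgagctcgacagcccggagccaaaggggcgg
Snhg12, chr4:132308648-132308707, plus strand: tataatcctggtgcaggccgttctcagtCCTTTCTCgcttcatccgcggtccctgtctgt
Snhg8, chr3:123508307-123508366, minus strand: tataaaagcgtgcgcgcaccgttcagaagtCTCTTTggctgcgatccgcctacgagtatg
Snhg3, chr4:132353657-132353716, minus strand: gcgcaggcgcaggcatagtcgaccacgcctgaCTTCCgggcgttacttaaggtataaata
Snhg5, chr9:88522868-88522927, minus strand: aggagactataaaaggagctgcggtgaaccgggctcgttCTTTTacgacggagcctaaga
Snhg1, chr19:8723457-8723516, plus strand: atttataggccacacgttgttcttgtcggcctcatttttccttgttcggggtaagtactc
Snhg11, chr2:158375683-158375742, plus strand: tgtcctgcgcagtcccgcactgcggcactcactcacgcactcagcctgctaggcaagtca
The run lay on or within 2 bases of the annotated start in Snhg8, Gas5 (downstream start), Snhg12 and Snhg3, and 9 bases into the transcript in Snhg5. These were 5 of the 8 starts, beside 27.9% of all 32851 RefSeq starts, 6 of 13 starts of other noncoding hosts and 6 of 22 starts of protein-coding snoRNA hosts. On the opposite strand the same search matched 2 of the 8 starts and 32.1% of all starts. These letters are a description of the window and were tied to no measurement below.

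One hosted snoRNA of each class is shown because reads over such genes enter the comparisons of the fractions. The capitals mark the C and D boxes of Snord47, which is held by Gas5, and the ACA box near the 3′ end of Snora24, which is held by Snhg8.
Snord47, chr1:161038082-161038158, plus strand: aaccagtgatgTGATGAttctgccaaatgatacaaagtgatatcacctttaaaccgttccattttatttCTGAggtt
Snora24, chr3:123507937-123508066, minus strand: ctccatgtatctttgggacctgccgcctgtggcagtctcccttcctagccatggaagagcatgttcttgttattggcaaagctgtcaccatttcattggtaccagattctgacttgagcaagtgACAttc

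Library totals ran from 6769731 to 31185874 reads. All 24 pairs of replicates differed by more than counting noise (chi-square over its degrees of freedom 1.78 or more), so none was counted as a repeat, and although each cytoplasm sample was an aliquot taken before sorting and each total RNA sample an aliquot of a gradient's lysate, no source says that equal replicate numbers mark the same lysate. The p-values below measure only the spread between these libraries, which may be technical. Pluripotency markers (5 genes) summed to at least 944 CPM (reads of a gene scaled by the library total, the same scale in every library) in every ES library and to at most 0.415 in MEFs before reprogramming, and the 10 fibroblast markers to at least 10790 CPM in those MEFs and at most 79.2 in ES cells, so the labelled cells carried their own markers. Nudt21 read 4.99 to 5.94 CPM in the 4 knockdown libraries and 89.1 to 115 in their day 3 controls. Ago2 read 2.57 to 4.52 CPM in the Ago2 KO libraries, while Ddx6 RNA says nothing of the degron, which acts on the protein. Differences on the log2 scale below are edgeR fits with TMM scaling on counts rounded to whole reads, each with its standard error, and "called" means an adjusted p under 0.05 over all genes with at least 10 reads in the libraries compared. All 8 members passed that filter in all 16 fits. In bulk RNA, a change in a gene's share cannot be told apart from a change in the rest of the RNA.

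Within a library, the members were compared per kilobase of the spliced transcript. In total RNA of control ES cells, Snhg1 stood at 113 CPM per kb ± 12.97 (SD, n = 3), Snhg6 at 104 ± 10.6, Snhg5 at 85.5 ± 4.50, Snhg12 at 71.1 ± 4.63 and Gas5 at 67.0 ± 5.28. Snhg3 followed with 47.9 ± 3.39, Snhg8 with 19.7 ± 3.74 and Snhg11 with 4.87 ± 0.329. The libraries of Snhg1 and Snhg6 overlapped, and so did those of Snhg12 and Gas5, while every other neighbour in this order was separated in all 3 libraries. The value of Gas5 and Snhg11 rests on their long reference transcripts, since a shorter isoform would raise the level per kb.

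The 2 ES cell states differed in the level of these RNAs in P-bodies relative to cytoplasm. This ratio also moves with the cytoplasm. For Gas5 the mean was 63.7 CPM in naive and 71.5 in primed P-bodies, and 55.9 and 88.7 in cytoplasm. In naive cells the fitted P-body value was above the cytoplasm for 6 of 8 members and below it for Snhg1 and Snhg6, whereas in primed cells it was below the cytoplasm for all 8. Gas5, the most abundant by CPM, read 65.0 and 62.5 CPM in naive P-bodies and 52.2 and 59.6 in naive cytoplasm. In primed cells it read 74.8 and 68.2 CPM in P-bodies and 94.1 and 83.3 in cytoplasm. The 2 fractions did not overlap in either state, and the order was reversed. The fitted log2 difference of Gas5 was 0.41 ± 0.11 in naive cells and -0.27 ± 0.09 in primed cells.

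Snhg3, the host of the box H/ACA snoRNAs Snora73a and Snora73b, and Snhg5, a host of box C/D snoRNAs, followed the same order. Snhg3 read 5.83 and 5.60 CPM in naive P-bodies against 5.15 and 5.13 in naive cytoplasm, and 4.09 and 3.36 in primed P-bodies against 12.6 and 12.04 in primed cytoplasm. The gap in primed cells was the widest among the members, with a log2 difference of -1.68 ± 0.20. Snhg5 read 25.4 and 26.4 CPM in naive P-bodies against 20.1 and 20.9 in cytoplasm, and in primed cells 20.9 and 20.1 against 39.7 and 33.8. Its P-body libraries spanned 20.1 to 26.4 CPM over both states and its cytoplasm libraries 20.1 to 39.7.

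Snhg11 was the member most unlike the rest. It read 7.47 and 7.24 CPM in naive P-bodies against 2.58 and 3.08 in naive cytoplasm, a log2 difference of 1.59 ± 0.26. In primed cells it read 24.0 and 24.6 CPM in P-bodies and 35.6 and 26.8 in cytoplasm, a log2 difference of -0.32 ± 0.14. All 4 primed libraries were above all 4 naive ones, and the order of the fractions was again reversed. Snhg11 is a long transcript known from brain, and its counts in naive cells were 33 to 91 reads per library.

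Snhg1 and Snhg6, hosts of box C/D snoRNAs, were the members low in P-bodies of both states. Snhg1 read 7.85 and 7.68 CPM in naive P-bodies against 11.1 and 12.9 in cytoplasm, and 8.58 and 7.44 in primed P-bodies against 18.02 and 13.6. Snhg6 read 6.50 and 7.84 CPM against 9.44 and 11.8 in naive cells, and 5.54 and 6.98 against 11.7 and 12.4 in primed cells. The fractions did not overlap for either gene in either state. Over all genes, P-bodies lay wholly below cytoplasm in 47.4% in naive cells and 39.1% in primed cells.

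Snhg8 and Snhg12 were less clear. Snhg8 overlapped between the fractions in both states, with 7.10 and 5.33 CPM in naive P-bodies and 3.68 and 5.84 in naive cytoplasm. Snhg12 rested on 13.5 to 31 reads per library. It overlapped in naive cells and read 1.37 and 1.14 CPM in primed P-bodies against 3.18 and 3.87 in primed cytoplasm.

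As a description of the values that chose them, 3 members (Snhg5, Snhg11 and Gas5) in naive cells were called higher in P-bodies, beside 22.6% of the 15630 genes tested, and none lower. In primed cells 6 members, all but Snhg8 and Snhg11, were called lower, beside 24.2% of the 16177 genes tested. The median log2 difference of the 8 members was 0.41 in naive cells and -0.86 in primed cells, while the median over all genes tested was -0.06 and 0.00. The naive value rests in part on the scaling. TMM raised naive P-body values by 0.22 on the log2 scale relative to library totals, and with library totals the members' median was 0.19, Gas5 stood at 0.19, 1 member was called, and 41.5% of all calls were higher in P-bodies in place of 59.4%. Without either naive P-body library no member was called, and without cytoplasm replicate 1 or 2 5 and 4 were. With equal replicate numbers as a block, Snhg11 alone was called. In a single fit of both states the naive P-body difference exceeded the primed one in all 8 members, by 0.39 to 1.92 on the log2 scale, and 5 of them were called higher (Snhg3, Snhg5, Snhg11, Snhg12 and Gas5), beside 13.9% of 17199 genes (3 members without either naive P-body library or without primed P-body replicate 2).

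**Figure D1:**
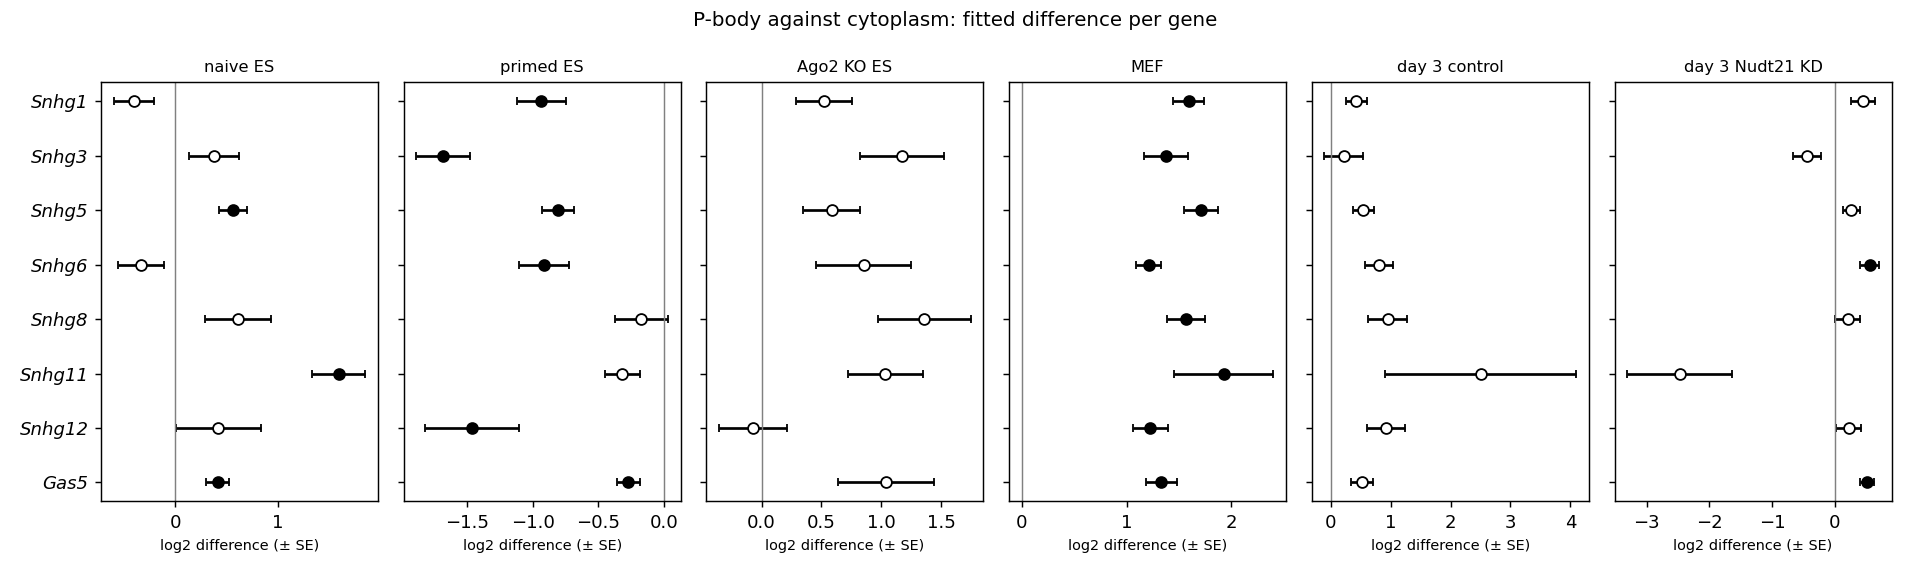
Each panel plots, for 1 kind of cell, the fitted log2 difference of P-body minus cytoplasm (horizontal axis, with a bar of 1 SE) for the 8 members, and filled points are called at an adjusted p under 0.05 over all genes. All 8 members lie left of 0 in primed ES cells and all 8 lie right of 0, filled, in MEFs.

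The other host genes were set beside the members as counts. Of 13 other noncoding hosts tested in naive cells, 3 were called higher and 2 lower in P-bodies with a median log2 difference of -0.03, and of 14 in primed cells 2 were higher and 8 lower with a median of -0.91. The 32 protein-coding hosts, mostly genes of ribosomal proteins and translation factors, had a median of -0.24 in naive and -0.15 in primed cells. The shift between the states was therefore present in the medians of both noncoding lists, and was not tested between lists. Nuclear-retained noncoding RNAs such as Malat1 and Tug1, counted as a sign of nuclear RNA, summed to 896 to 902 CPM in naive P-bodies and 329 to 405 in naive cytoplasm, and to 1010 to 1049 and 1109 to 1316 CPM in primed P-bodies and cytoplasm. The sums rest on the most abundant genes and the list was mixed. In naive P-bodies 4 of 8 were called higher and Neat1 lower at -1.06 ± 0.20, and in primed P-bodies 4 of 9 were called lower, Malat1 among them at -0.61 ± 0.10, while Tug1 and Pvt1 were higher at 0.88 ± 0.05 and 0.87 ± 0.23. Their part in the result was not tested.

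In Ago2 KO ES cells 7 of 8 members had a fitted P-body value above the cytoplasm and none was called. Gas5 read 413 and 271 CPM in P-bodies and 235 and 98.0 in cytoplasm, so the cytoplasm libraries differed from each other by more than the closest values of the 2 fractions. Snhg6 read 92.8 and 58.5 CPM in P-bodies against 60.4 and 23.3 in cytoplasm and overlapped. For both genes the P-body library was above the cytoplasm library of the same replicate number. With these numbers as a block, 6 members (all but Snhg1 and Snhg12) were called higher, and deviations of same-numbered libraries correlated at 0.60 over genes. The share of all genes called with the block was not counted. Snhg8 read 28.2 and 22.1 CPM against 14.3 and 5.26 and did not overlap, with a log2 difference of 1.36 ± 0.39. Snhg12 was level, with 10.05 and 10.35 CPM against 8.90 and 11.9. The members' median log2 difference was 0.94, against 0.04 over the 16808 genes tested, and it ranged from 0.50 to 1.32 as each library was left out in turn. The calls changed with the library left out, in fits that hold 1 library in a group. Nuclear-retained RNAs summed to 752 to 793 CPM in P-bodies and 263 to 553 in cytoplasm there. Malat1, which was not called, made most of the sum, with means of 612 and 303 CPM, and the list was mixed. Only Kcnq1ot1 was called, higher at 1.87 ± 0.42. Firre (-1.14 ± 0.32), Neat1 (-0.85 ± 0.30) and Meg3 (-0.54 ± 0.27) lay below 0 and the rest above. The part of these RNAs in the result was not tested. Over all genes 919 were called higher and 176 lower (4031 had an unadjusted p under 0.05, and DESeq2 called 1 member). No unedited cells were read in that table, so the knockout itself was not compared here.

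**Figure D2:**
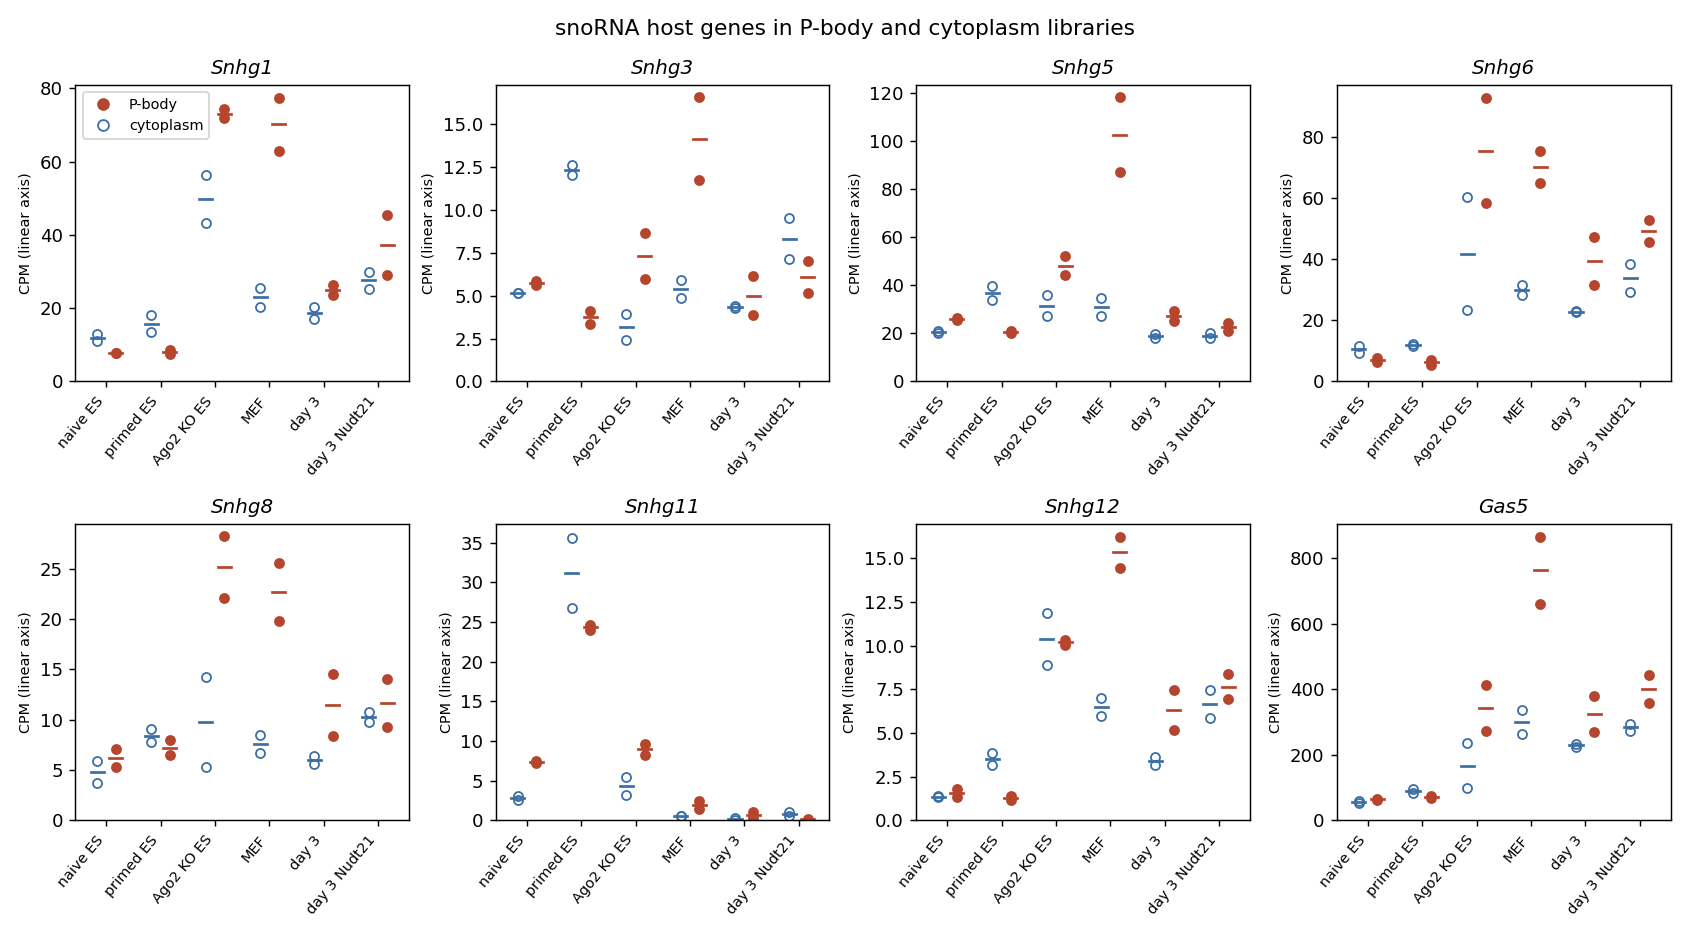
Each panel plots 1 member, with CPM in every P-body (filled) and cytoplasm (open) library on a linear axis and short lines at the mean of 2 libraries, for the 6 kinds of cell. The filled MEF points are above the open ones for every member, and the primed ES points run the other way for all but Snhg8. Ago2 KO values come from another table and are set beside the rest for order only.

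In MEFs every member was higher in P-bodies, by 1.21 to 1.93 on the log2 scale. Gas5 read 865 and 661 CPM in MEF P-bodies and 263 and 337 in MEF cytoplasm, a log2 difference of 1.33 ± 0.15. Snhg5 read 119 and 87.2 CPM against 27.3 and 34.9, a log2 difference of 1.71 ± 0.17. Snhg1 read 77.4 and 63.0 CPM against 20.4 and 25.6, and Snhg6 75.6 and 64.9 against 28.5 and 31.5. The hosts of lower level did the same. Snhg8 read 25.6 and 19.8 CPM against 6.64 and 8.51, Snhg12 16.2 and 14.5 against 5.98 and 6.99, and Snhg3 16.6 and 11.7 against 4.86 and 5.90. Snhg11, with 15 to 62 reads per library, read 2.45 and 1.47 CPM against 0.481 and 0.531.

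The fractions did not overlap for any member in MEFs, and P-bodies lay wholly above cytoplasm in 39.7% of all genes. Of these values, which took part in the choice, all 8 were called higher, beside 26.6% of the 16198 genes tested, with a median of 1.47 against 0.03 over all genes. Of the 14 other noncoding hosts, 11 were called higher and none lower, with a median of 1.32 (the median of the 32 protein-coding hosts was 1.18, with 25 higher and 3 lower). Marker sums moved with it. Nuclear-retained RNAs summed to 4947 to 6965 CPM in MEF P-bodies and to 1177 to 1256 in MEF cytoplasm. Of the 9, 8 were called higher, Tug1 was called lower at -0.96 ± 0.09, and none was at 0. All 4 markers of lung epithelium, a cell type apart from fibroblasts, were detected in MEF P-bodies and summed to 5.81 to 87.8 CPM, against at most 0.0166 in MEF cytoplasm with 3 of 4 at 0. The part of either in the result was not tested.

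At day 3 of reprogramming the gap between the fractions was smaller. Gas5 read 271 and 378 CPM in d3-ctrl P-bodies against 234 and 223 in cytoplasm, a log2 difference of 0.53 ± 0.18. Snhg6 read 31.6 and 47.3 CPM against 22.8 and 23.0, and Snhg12 5.19 and 7.48 against 3.16 and 3.598. The fractions did not overlap for 7 members, Snhg3 being the exception, and P-bodies lay wholly above cytoplasm in 28.3% of all genes. No member was called, in a fit that called 31 of 15786 genes higher and 71 lower (3899 had an unadjusted p under 0.05, and DESeq2 called 2 members). Leaving out either P-body library changed the calls, in fits that hold 1 P-body library. The members' median log2 difference ranged from 0.47 to 0.93 as each library was left out in turn. Snhg11 was at 0 to 21 reads per library and gave no usable fold. In a single fit, the P-body difference in MEFs exceeded that of d3-ctrl for 7 members, by 0.26 to 1.12 on the log2 scale, and 2 (Snhg1 and Snhg5) were called higher, beside 5.13% of 17488 genes. With library totals the split of calls over all genes in that fit was 46.9% higher in place of 34.9%, and 2 members were called. No member was called there without MEF P-body replicate 1, MEF cytoplasm replicate 1 or either d3-ctrl cytoplasm library, and 5 were without d3-ctrl P-body replicate 2.

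With Nudt21 knocked down, Gas5 read 444 and 357 CPM in P-bodies against 273 and 294 in cytoplasm, and Snhg6 read 53.0 and 45.6 against 29.3 and 38.4. These 2 were called higher, beside 9.04% of the 15995 genes tested. Without cytoplasm replicate 1 or 2 the fit called 0 and 1, and without P-body replicate 1 or 2 it called 4 and 5. Snhg3 went the other way without overlap, with 7.02 and 5.15 CPM in P-bodies against 9.51 and 7.14 in cytoplasm and a log2 difference of -0.44 ± 0.22. Snhg11 read 6 and 2.5 reads in P-bodies and 15 and 23 in cytoplasm. In the single fit with d3-ctrl no member's P-body difference was called as changed, and of all 16973 genes 2 were called, both lower (819 had an unadjusted p under 0.05).

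Reads over the hosted snoRNA genes themselves were few. Of the 28 snoRNA genes, 8 were listed by symbol in both the P-body table and the polysome table: Snord22 (Snhg1), Snord87 (Snhg6), Snora24 (Snhg8), Snora16a, Snora44, Snora61 and Snord99 (Snhg12) and Snord47 (Gas5). In the 12 polysome and total RNA libraries they summed to 0 to 2 reads per library, against 6302 to 15381 reads of their 5 hosts. Those libraries were made and counted by other methods than the P-body and cytoplasm libraries, so their snoRNA reads are not compared. In the P-body and cytoplasm libraries of ES cells the 8 snoRNA genes summed to 10 to 20.5 reads. MEF P-bodies stood apart with 389 and 313 reads, against 48 and 73.3 in MEF cytoplasm. Snord47 read 144.5 and 96 there against 10.5 and 25, and Snord22 read 107.5 and 80.1 against 11.5 and 14 in cytoplasm.

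Per 1000 reads of the 5 hosts, the 8 snoRNA genes had 14.5 and 14.7 reads in MEF P-bodies and 4.75 and 5.94 in MEF cytoplasm, so their reads were higher in P-bodies by more than those of the hosts. In d3-ctrl the ratio was 4.14 and 3.65 in P-bodies against 4.01 and 2.75 in cytoplasm, and in d3-NudT21 2.34 and 1.80 against 4.88 and 4.91. In primed ES cells it was 14.2 and 11.1 in P-bodies against 20.1 and 21.2 in cytoplasm, and in naive cells 11.6 and 11.3 against 10.6 and 8.87. The naive ratios rest on 11 and 12 snoRNA reads in P-bodies against 10.5 and 10 in cytoplasm, and in d3-ctrl the ratios overlapped. The sum of nuclear-retained RNAs, given above for ES cells and MEFs, was 872 to 896 CPM in d3-NudT21 P-bodies against 1294 to 1310 in cytoplasm, and 1700 to 1989 against 1586 to 1610 in d3-ctrl. Its relation to the ratios was not tested. Reads from a mature snoRNA and from an unspliced host intron cannot be told apart in these counts. Among the Ago2 KO libraries, 10 of the snoRNA genes were listed and 7 or 9 of them were at 0 in each library, while Snora73b of Snhg3 read 39.5 and 47.4 in P-bodies and 22.9 and 8.43 in cytoplasm.

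**Figure D3:**
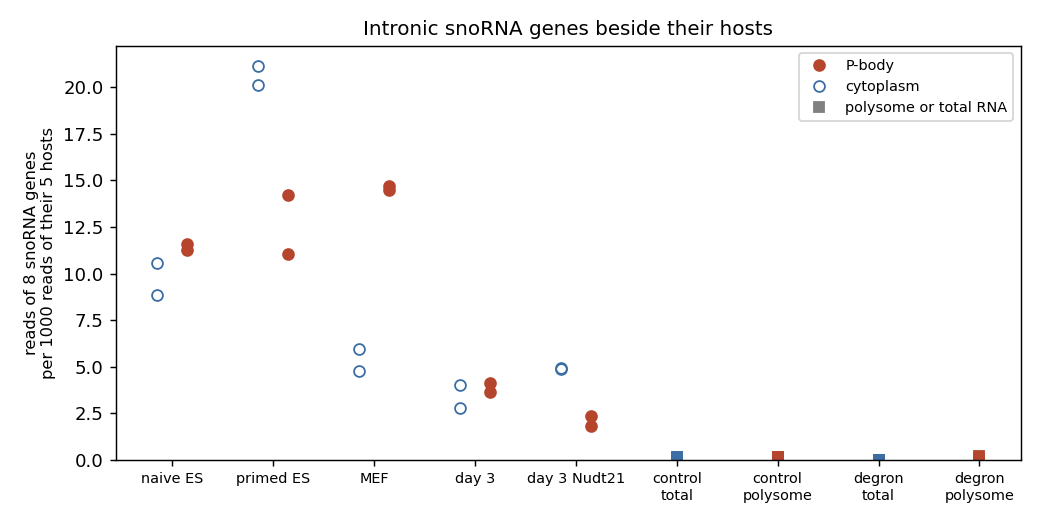
Points give, for each library, the summed reads of 8 hosted snoRNA genes per 1000 reads of their 5 host genes (vertical axis) in P-body (filled circles), cytoplasm (open circles), polysome and total RNA (squares) groups. MEF P-bodies lie at 14.5 and 14.7, above MEF cytoplasm, primed ES cytoplasm lies highest at 20.1 and 21.2, and the polysome and total RNA libraries lie at or near 0. The polysome and total RNA libraries were made and counted by other methods and are set beside the rest for order only.

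The polysome libraries hold a pool of the gradient fractions that contained ribosomes, so the number of ribosomes on an RNA cannot be read from them. Most members were at or above their total RNA level there. Snhg11 differed most, with 52.4, 59.95 and 50.9 CPM in control_poly against 28.5, 30.5 and 26.6 in control_total, a log2 difference of 0.77 ± 0.08. Snhg5 read 124, 121 and 144 CPM against 87.9, 80.6 and 88.9, a log2 difference of 0.43 ± 0.08. Gas5, the textbook case of a short-framed RNA on ribosomes, read 202, 222 and 258 CPM against 181, 156 and 177, a log2 difference of 0.24 ± 0.09. Snhg12 read 50.1, 61.2 and 60.2 CPM against 42.4, 40.7 and 46.2, also 0.24 ± 0.09. The 3 polysome libraries were above the 3 total RNA libraries for each of these 4 genes, as they were for 37.3% of all genes.

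The remaining members were close to level. Snhg1 read 85.0, 86.0 and 91.2 CPM against 65.3, 62.9 and 77.5, a log2 difference of 0.18 ± 0.08 without overlap. Snhg6 and Snhg8 overlapped, with log2 differences of 0.00 ± 0.09 and 0.04 ± 0.12. Snhg3 read 23.7, 22.8 and 23.6 CPM against 22.0, 19.2 and 21.5 without overlap, yet its fitted difference was -0.01 ± 0.08, and its direction is not settled, since with library totals it was 0.16.

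With DDX6 removed, the 4 genes named first were again above total RNA in all 3 libraries. In DDX6deg_poly Snhg11 read 52.4, 67.3 and 62.9 CPM against 24.4, 27.6 and 29.2 in DDX6deg_total, a log2 difference of 0.98 ± 0.08. Snhg5 read 138, 137 and 144 CPM against 88.8, 94.8 and 97.0, and Gas5 250, 267 and 288 against 195, 204 and 195. Snhg12 read 59.9, 73.1 and 74.0 CPM against 42.9, 51.1 and 51.0, and Snhg1 86.9, 104 and 103 against 65.7, 74.9 and 70.3. The fractions were separated for 7 members, Snhg3 being the exception with -0.07 ± 0.09 (0.12 with library totals). Over all genes, polysomes lay wholly above total RNA in 42.5% with the degron.

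Again as a description of values that took part in the choice, in the control 4 members (Snhg5, Snhg11, Snhg12 and Gas5) were called higher on polysomes, beside 18.8% of 15411 genes (2 members without control_poly replicate 2 or 3 or control_total replicate 2), and with the degron the same 4 and Snhg1 were, beside 24.0% of 15638 genes. No member was called lower. The median over the members was 0.21 and 0.27, against 0.02 over all genes in both. TMM lowered polysome values by 0.17 and 0.18 on the log2 scale relative to library totals, and with library totals 5 and 7 members were called, while the share of all calls that were higher on polysomes went from 43.7% to 65.3% in the control and from 47.3% to 67.2% with the degron. The change in this difference upon DDX6 removal lay between -0.06 and 0.21 for the members, with standard errors of 0.09 to 0.16. The largest was that of Snhg11, at 0.21 ± 0.12. edgeR called none of the 16345 genes in that comparison (844 had an unadjusted p under 0.05), and DESeq2 called none of the members.

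**Figure D4:**
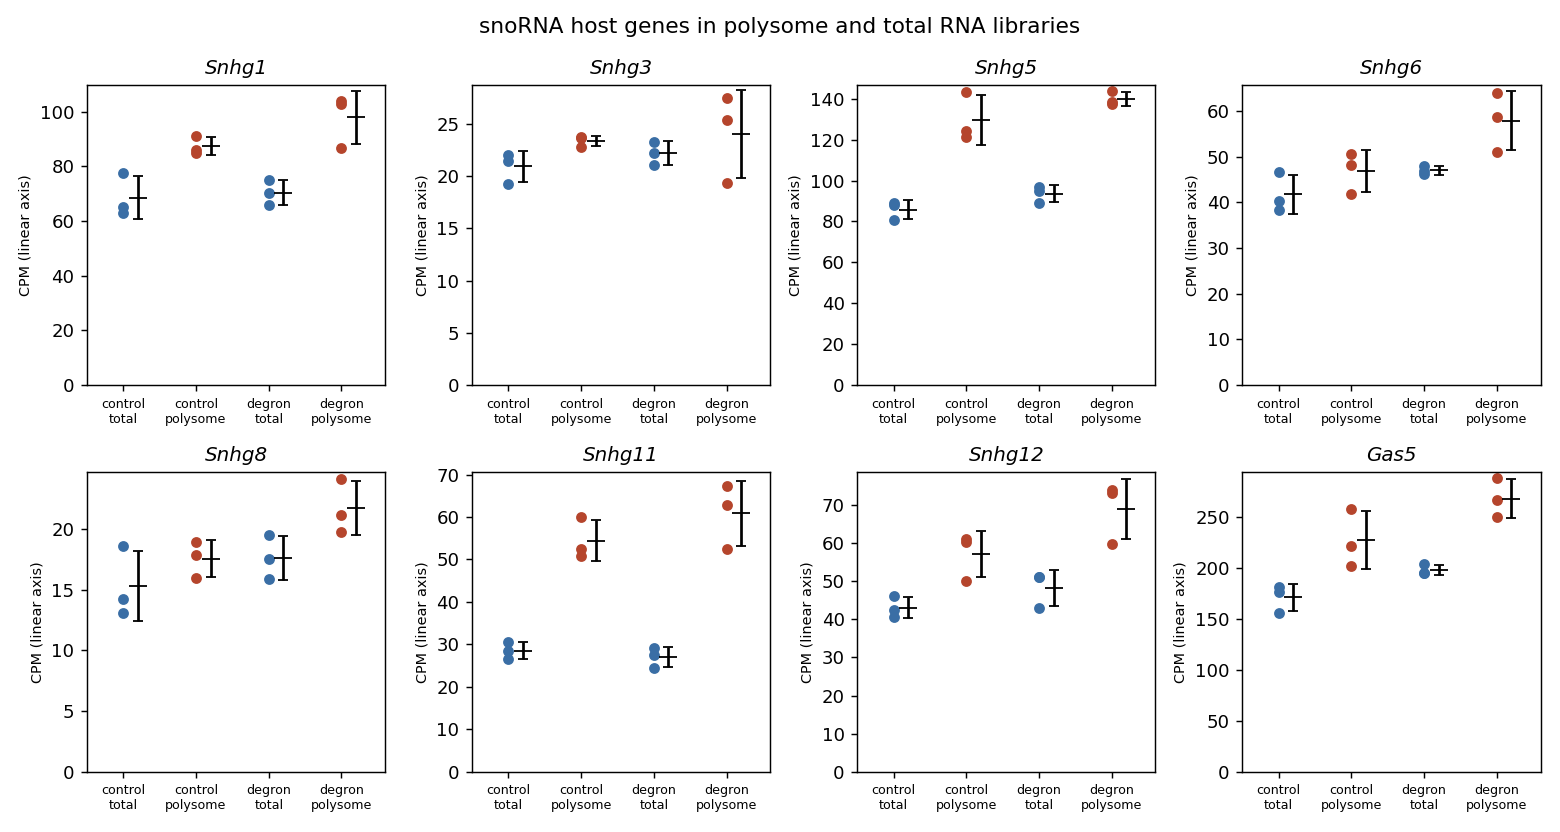
Each panel plots 1 member, with CPM in each of the 3 libraries of control and DDX6 degron total RNA and polysomes on a linear axis, and beside them the mean with its SD. The polysome points of Snhg5, Snhg11, Snhg12 and Gas5 lie above their total RNA points in both conditions, and those of Snhg3 are near level.

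Among the other hosts, 2 of 14 noncoding ones were called higher on polysomes and 1 lower in the control, with a median of 0.12, and 8 of 32 protein-coding hosts were higher and 6 lower, with a median of 0.07. The sum of nuclear-retained RNAs was 796 to 928 CPM in control_poly against 597 to 716 in control_total before TMM scaling. In the control fit 4 of 9 (Firre, Meg3, Pvt1 and Tug1) were called higher and none lower, with Malat1 at -0.01 ± 0.11 and Neat1 at 0.05 ± 0.09. With the degron Malat1 (0.29 ± 0.07) and Neat1 (0.17 ± 0.05) were called higher, as were Firre, Meg3 and Pvt1, while Airn, Kcnq1ot1 and Mirg were not called. Tug1 had a mean of 173 CPM in DDX6deg_poly and 93.1 in DDX6deg_total. The sum was 853 to 984 CPM in DDX6deg_poly against 557 to 651 in DDX6deg_total. The part of nuclear-retained RNAs in the result was not tested. Over the 12 libraries, the genes of at least 10 CPM whose log2 CPM ran most like the members' mean were 1110038B12Rik (Pearson's r = 0.98), 2610318N02Rik (0.97) and Snhg15 (0.97), itself a snoRNA host. The members' own correlations with that mean, of which each is a part, ran from 0.74 for Snhg3 to 0.98 for Snhg12. The libraries share a split into polysomes and total RNA, so these values are no more than a description of that split and its depth.

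Total RNA answered whether the hosts changed in level when DDX6 was removed, and here the members could be tested, although the same libraries were the denominator above. None was called by edgeR's quasi-likelihood test, which called 191 of 15380 genes higher and 318 lower (2981 had an unadjusted p under 0.05), and 7 of 8 lay above 0. Gas5 read 195, 204 and 195 CPM in DDX6deg_total against 181, 156 and 177 in control_total. The libraries did not overlap, the log2 difference was 0.21 ± 0.06 and the adjusted p was 0.087. The other differences ranged from -0.07 ± 0.08 in Snhg11 to 0.22 ± 0.12 in Snhg8, with adjusted p-values of 0.25 to 0.83, and the libraries overlapped for each. Without control_total replicate 3 the fit called 5 members (Snhg5, Snhg6, Snhg8, Snhg12 and Gas5). That library was the least like its replicates (chi-square over its degrees of freedom 11.6 and 10.7, against 2.74 for the other pair). The share of all genes called without it was not counted, so nothing about the members is read from that count. In the full fit 1 of the 32 protein-coding hosts was called higher and none lower, and none of 14 noncoding hosts was called.

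The cytoplasm libraries were the denominators of the P-body values that took part in the choice of members, so the 3 comparisons that follow are not independent of it. In the cytoplasm, Snhg11 separated primed from naive ES cells most. It read 35.6 and 26.8 CPM in primed and 2.58 and 3.08 in naive cytoplasm, 9.57-fold higher, with a log2 difference of 3.26 ± 0.26 (edgeR, adjusted p = 0.00058). Snhg3 was 2.09-fold higher in primed cells (log2 difference 1.06 ± 0.24, edgeR adjusted p = 0.017), Snhg5 1.56-fold (0.64 ± 0.17, adjusted p = 0.027) and Gas5 1.38-fold (0.47 ± 0.14, adjusted p = 0.035). These 4 were called higher, beside 21.6% of 16125 genes, and none was lower. Snhg12 (1.19 ± 0.40, adjusted p = 0.054) and Snhg8 (0.62 ± 0.32, adjusted p = 0.16) did not pass, nor did Snhg1 and Snhg6, which stood at 0.20 ± 0.23 and -0.01 ± 0.23 (0.18 for Snhg6 with library totals).

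The calls in the cytoplasm of ES cells rest on 2 libraries a group. When primed cytoplasm replicate 1 or 2 was left out, Snhg11 alone was called. TMM lowered primed values by 0.20 on the log2 scale relative to library totals, with which Snhg12 was called too and 62.0% of all calls were higher in place of 49.4%. Of 8 nuclear-retained RNAs 6 were called higher and Neat1 lower, with sums of 1109 to 1316 CPM in primed and 329 to 405 in naive cytoplasm. Among 14 other noncoding hosts 6 were called higher and 1 (Snhg15) lower, with a median of 0.55. Of those with at least 10 CPM, Rian stood highest at 2.06 ± 0.35 and Snhg4 next at 1.76 ± 0.22. Of the 32 protein-coding hosts none was called higher and 8 were called lower, with a median of -0.22, among them Rps2 at -0.56 ± 0.10 and Nop56 at -0.53 ± 0.13. Over all genes 22.1% were called lower.

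Between MEFs and day 3 of reprogramming, all 8 members fell in the cytoplasm, beside 33.7% of 16108 genes called lower. Snhg5 fell by 0.88 ± 0.12 on the log2 scale (edgeR, adjusted p = 8.5e-06), Snhg12 by 1.1 ± 0.19 (adjusted p = 0.00011), Gas5 by 0.55 ± 0.09 (adjusted p = 2.8e-05) and Snhg6 by 0.55 ± 0.10 (adjusted p = 0.00015). Snhg1, Snhg3 and Snhg8 fell by 0.45 to 0.50 with adjusted p-values of 0.0053 to 0.039. The libraries of Snhg1 overlapped, with 20.4 and 17.1 CPM at day 3 against 20.4 and 25.6. Snhg11 had 15 and 16 reads in MEF cytoplasm and 6 and 0 at day 3.

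The smaller of these changes were the least firm. With library totals, which moved values by 0.16, Snhg1, Snhg3, Snhg8 and Snhg11 were no longer called, and DESeq2 did not call Snhg3, Snhg8 and Snhg11. Without MEF cytoplasm replicate 2, and likewise without d3-ctrl cytoplasm replicate 2, 4 members were called. Over the same step 27 of 32 protein-coding hosts were called higher and 3 lower (median 0.53), beside 35.5% of all genes called higher. Of 8 genes of snoRNP core proteins 7 were called higher, led by Fbl, the methyltransferase of box C/D particles, at 1.38 ± 0.07. The 14 other noncoding hosts had a median of -0.06, with 1 higher and 2 lower. Fibroblast markers summed to 35210 to 38390 CPM in MEF cytoplasm and to 5394 to 5542 at day 3, and pluripotency markers to at most 0.160 and to 322 to 332 CPM. Of the 5 pluripotency markers at day 3, 2 were at 0 and 2 were over 1 CPM. Reads of the induced cassette were not separated from those of the cells' own genes. The part of cell identity in the result was not tested.

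Nudt21 knockdown moved the members the other way at day 3, in a comparison that shares the d3-ctrl libraries with the previous one. In cytoplasm 7 of 8 members rose, beside 24.6% of 15990 genes called higher. Snhg3 read 9.51 and 7.14 CPM in d3-NudT21 against 4.30 and 4.37 in d3-ctrl, 1.90-fold higher (log2 difference 0.93 ± 0.20, edgeR adjusted p = 0.00074). Snhg12 read 5.85 and 7.45 CPM against 3.16 and 3.598 (0.95 ± 0.22, adjusted p = 0.0015), and Snhg8 9.74 and 10.7 against 6.34 and 5.62 (0.75 ± 0.17, adjusted p = 0.0012). Snhg1 and Snhg6 rose by 0.54 each and Gas5 by 0.29 ± 0.07 (adjusted p = 0.0011).

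Snhg5 did not differ beyond its spread, with 18.1 and 20.1 CPM against 17.9 and 19.7 and a log2 difference of 0.00 ± 0.12. Snhg11 rose from 6 and 0 reads to 15 and 23 and was called, but not without d3-ctrl replicate 2 or d3-NudT21 replicate 2. Of the 14 other noncoding hosts 3 rose and 2 fell, Rian by 0.96 ± 0.17, with a median of 0.35. Of the 32 protein-coding hosts 5 rose and 7 fell, with a median of -0.04, and over all genes 25.0% were called lower. Fibroblast markers summed to 1686 to 1713 CPM in the knockdown and naive markers to 584 to 693, against 5394 to 5542 and 315 to 327 in d3-ctrl. Of 10 naive markers, 6 were over 1 CPM in the knockdown, while in d3-ctrl 4 were and 3 were at 0. The part of these markers in the result was not tested.

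**Figure D5:**
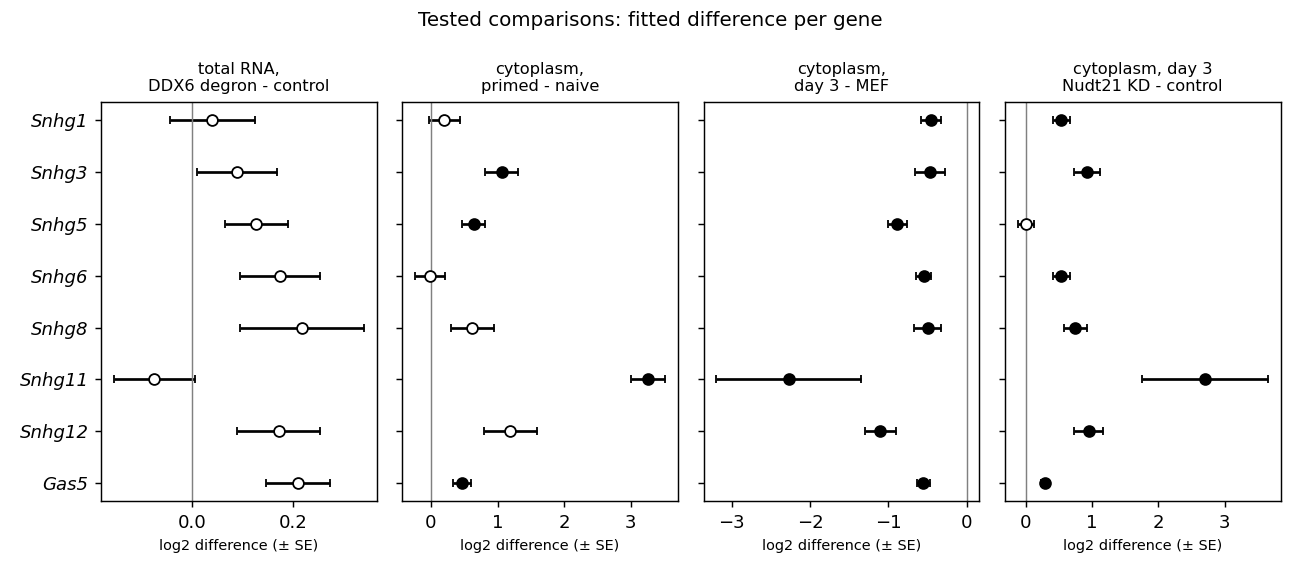
Each panel plots the fitted log2 difference with a bar of 1 SE (horizontal axes differ between panels) for the 8 members in 1 tested comparison, with filled points at an adjusted p under 0.05 over all genes. No point is filled for DDX6 removal, all 8 lie below 0 from MEFs to day 3, and 7 lie above 0 and filled with Nudt21 knocked down.

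The genes of nonsense-mediated decay, the pathway that degrades spliced host RNA, were read from a fixed list of 10. In total RNA the kinase Smg1 was called lower upon DDX6 removal, at -0.41 ± 0.08, and none was called higher. In primed against naive cytoplasm Upf3b was called higher at 0.73 ± 0.21. From MEFs to day 3, 5 were called higher and 5 lower, from Upf2 at -0.98 ± 0.09 to Upf3a at 0.84 ± 0.08. Over all genes 35.5% were called higher and 33.7% lower in that comparison. With Nudt21 knocked down 6 were higher and 3 lower, with the kinase Smg1 at 0.80 ± 0.10, Upf3a at -0.56 ± 0.09 and Upf3b at -0.51 ± 0.11. Over all genes 24.6% were called higher and 25.0% lower with the knockdown. Of the 8 genes of snoRNP core proteins, none was called upon DDX6 removal, 3 were lower in primed cytoplasm (Snu13, Nop56 and Dkc1), and 3 were higher and 1 lower with Nudt21 knocked down.

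Some of these counts share reads with neighbours. The exons of Snhg3 share 135 bases with Rcc1 on the same strand and 705 with Gm17300 on the opposite strand, and those of Snhg6 share 127 with Mcmdc2 on the opposite strand, and whether fraction reads were counted by strand is not given in the sources used here. The values of Snhg3 and Snhg6 are therefore uncertain to that extent. The hosted snoRNA genes of Gas5, Snhg1, Snhg5, Snhg8 and Snhg12 lie wholly within exons of some host transcript in GENCODE M21. Whether reads over them were counted for the host, the snoRNA gene or both is not given in the sources used here. The ratios of snoRNA to host reads share that uncertainty.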

How the data were processed

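P-body and cytoplasm libraries were made from oligo-dT primed cDNA and polysome and total RNA libraries with a strand-marking kit. The authors aligned reads to mm10 with HISAT2 and counted refGene exons with featureCounts for the first, ran an RNA-seq pipeline with salmon for the second, and deposited gene tables, and the submitters' processing notes also name DESeq2. The authors deposited each of these tables as an estimated count per gene (expected count), not whole for some genes, and each was rounded to whole reads. The Ago2 KO table, which its deposited name gives as salmon output, has Ensembl identifiers, and its other settings are not given in the sources used here.

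Groups came from the sample labels. Each comparison was fitted over all genes with at least 10 reads in its libraries by edgeR 4.0.16 (glmQLFit, glmQLFTest, TMM) in R 4.3.3, with Benjamini-Hochberg adjustment and a threshold of 0.05. CPM divides reads by the library total. The fits were tested on simulated data. The 10 deposited tables of the authors' own fold changes were not used. The members, lists and rules for named genes (all 8 members, and in each list the 2 lowest and 2 highest with at least 10 CPM, of which those described here were taken) were chosen with earlier results of these data known. Alternatives were DESeq2, its size factors, other filters, a replicate block, all libraries in 1 fit, leaving out libraries and, added after seeing the data, library totals. Intervals and standard errors cover the spread of these libraries only. An item withheld from this text is not reported here.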

Additional observations from a re-analysis of the deposited data

Results flagged for a closer look

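The P-body difference of 4 members had opposite signs in naive and primed ES cells, with every P-body library above the cytoplasm in naive cells and below it in primed cells. Over all genes, 29.3% lay wholly above in naive cells and 39.1% wholly below in primed cells, and the share doing both was not counted. The naive difference exceeded the primed one by 1.92 ± 0.30 on the log2 scale for Snhg3, by 1.23 ± 0.18 for Snhg5, by 1.77 ± 0.27 for Snhg11 and by 0.55 ± 0.15 for Gas5. These comparisons took part in the choice of the members, so the differences are given as descriptions, with no p-value.

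Snhg11 was above the cytoplasm in d3-ctrl P-bodies and below it in d3-NudT21 P-bodies. It read 6 and 21 reads in d3-ctrl P-bodies against 6 and 0 in cytoplasm, and 6 and 2.5 in d3-NudT21 P-bodies against 15 and 23. The fitted difference between the knockdown and the control was -4.95 ± 1.83 on the log2 scale, which edgeR did not call over all genes and which depends on the prior count of the fit, since 1 library was at 0.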

How the results depend on the processing

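No member changed direction while called, under any alternative. Counts of members called in P-body against cytoplasm moved as follows. In naive cells DESeq2, the replicate block and library totals each called 1. In Ago2 KO cells DESeq2 called 1, no filter 5 and the block 6. In d3-ctrl DESeq2 and no filter called 2 and a single fit of all libraries 5, and in d3-NudT21 no filter called 4. For the difference between MEFs and d3-ctrl, no filter and the single fit called 4 each. In total RNA no filter called 1 (Gas5). From MEFs to day 3 in cytoplasm DESeq2 called 5 and library totals 4.

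With library totals the members' median log2 difference was 0.19 in naive P-bodies, 0.38 and 0.46 on polysomes of control and degron cells, and 0.83 in primed against naive cytoplasm. The median difference between naive and primed cells was 0.64 without Snhg11, 1.05 with no filter and 1.06 in the single fit, and the median in Nudt21 knockdown cytoplasm was 0.54 without Snhg11.

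With each library left out in turn, P-body against cytoplasm gave 0 to 5 calls and a median of 0.36 to 0.50 in naive cells, 5 to 7 and -0.90 to -0.72 in primed cells, 0 to 7 and 0.50 to 1.32 in Ago2 KO cells, 7 to 8 and 1.26 to 1.68 in MEFs, 0 to 7 and 0.47 to 0.93 in d3-ctrl, and 0 to 5 and 0.07 to 0.43 in d3-NudT21. Polysome against total RNA gave 2 to 5 calls and 0.12 to 0.27 in the control, 5 to 6 and 0.23 to 0.33 with the degron, and 0 and 0.00072 to 0.14 for the change between them. Differences between P-body comparisons gave 3 to 6 calls and 0.86 to 1.12 for naive and primed cells, 0 to 5 and 0.44 to 0.998 for MEFs and d3-ctrl, and 0 to 2 and -0.61 to -0.19 for the knockdown. The tested comparisons gave 0 to 5 calls and 0.09 to 0.19 in total RNA, 1 to 6 and 0.52 to 0.80 in primed cytoplasm, 4 to 7 and -0.69 to -0.45 from MEFs to day 3, and 6 to 7 and 0.56 to 0.76 with Nudt21 knocked down. Where a group was left with 1 library, it was assumed to vary like the others. The share of all genes called was not counted in these fits, so their calls describe only the dependence on single libraries. The causes were not tested.

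Replicate numbers were not treated as pairs, since no source says that equal numbers mark 1 lysate. Same-numbered deviations of P-body and cytoplasm correlated at 0.60 in Ago2 KO, 0.20 in d3-NudT21, 0.18 in d3-ctrl, 0.09 in primed cells, -0.01 in MEFs and -0.06 in naive cells, and those of polysome and total RNA between -0.03 and 0.16. The replicate block called 5 members on control polysomes, 4 for naive against primed, 3 for MEFs against d3-ctrl, 3 in primed cytoplasm and 7 from MEFs to day 3. Depth limits Snhg11 in MEFs and Snhg12 in ES cells most.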
